A study of Mus musculus with 13 samples.

Results

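Potassium channel genes were examined in CA1 tissue of mouse brain slice cultures that had lost one of their main excitatory inputs. The set was defined by name: every symbol in the count tables that starts with Kcn, leaving out antisense transcripts (symbols ending in os or ot, also where a number follows), gave 94 genes, and the 47 of them with a mean of at least 150 counts over the 13 libraries, after scaling to equal library totals, are described here. The tables hold 55291 symbols in all. By the letter of the name rule the antisense transcript Kcnq1ot1, which passes the mean, would have been the 48th; it was left out as antisense.

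All cultures were entorhino-hippocampal slices of wildtype C57BL/6 mice, prepared at postnatal day 4 to 5 and kept at least 18 days in vitro. The groups were non-lesioned controls (5 libraries), Schaffer collateral lesion (SCL, 4 libraries) and entorhinal cortex lesion (ECL, 4 libraries). SCL cuts the CA3 axons that reach CA1, and ECL cuts the axons arriving from the entorhinal cortex. By the column headings of the counts, controls were 3 female and 2 male, SCL 3 female and 1 male, and ECL 1 female and 3 male. Sex was thus unbalanced between the lesion groups. CA1 was cut out 3 days after the lesion without the scar, and 1 library was made from the CA1 of 1 culture; the sources used here do not tie cultures to animals, so p-values measure the spread between cultures. CA1 tissue holds pyramidal cells, interneurons and glia together, so fewer cells of a type and less RNA per cell cannot be told apart in any value below.

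Potassium channels let potassium leave or enter the cell and so set the resting potential, the shape of the action potential and how readily a neuron fires again. In hippocampal neurons the voltage-gated Kv channels repolarise the membrane, the Kv7 channels carry the M-current that restrains repetitive firing, inward rectifiers and two-pore-domain leak channels hold the resting potential, and channels opened by calcium or sodium follow the activity of the cell. Astrocytes use an inward rectifier, encoded by Kcnj10, to take up potassium that neurons release.

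Library totals lay between 14371152 and 21092612 counts in controls, between 16405517 and 56786613 in the SCL group and between 20210165 and 46449937 in the ECL group. Replicate libraries of a group correlated at 0.920 or higher on the log scale. The 47 members together took 2033 to 2299 CPM (counts per megacount of library total) in controls, 1671 to 2110 CPM after SCL and 1678 to 2076 CPM after ECL. Among marker genes, 10 of 10 for microglia were called higher after SCL and 7 of 10 after ECL. Of 10 pan-neuronal genes 4 were called lower after SCL and 6 after ECL, and of 6 pyramidal cell genes none was called by edgeR or reached an unadjusted p below 0.05 in either. Wherever a member is reported as lower, the summed pan-neuronal level stood beside it at 4368 to 4719 CPM in controls, 3886 to 4515 after SCL and 3715 to 4950 after ECL, and its part in the result was not tested.

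In control CA1 the levels of the members spanned a wide range. Levels in CPM per kilobase of exon, the scale on which different genes may be compared, ran from 31.1 ± 5.24 for Kcnj10 down to 0.728 ± 0.0659 for the calcium-activated channel gene Kcnn3 (mean ± SD, n = 5). Next to Kcnj10 stood Kcnk1, a two-pore-domain channel, at 25.8 ± 1.77, Kcnj3, a subunit of the G protein-gated inward rectifier GIRK, at 24 ± 2.55, and Kcnd2, the main Kv4 subunit of the dendritic A-type current, at 24 ± 1.38.

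**Figure D1:**
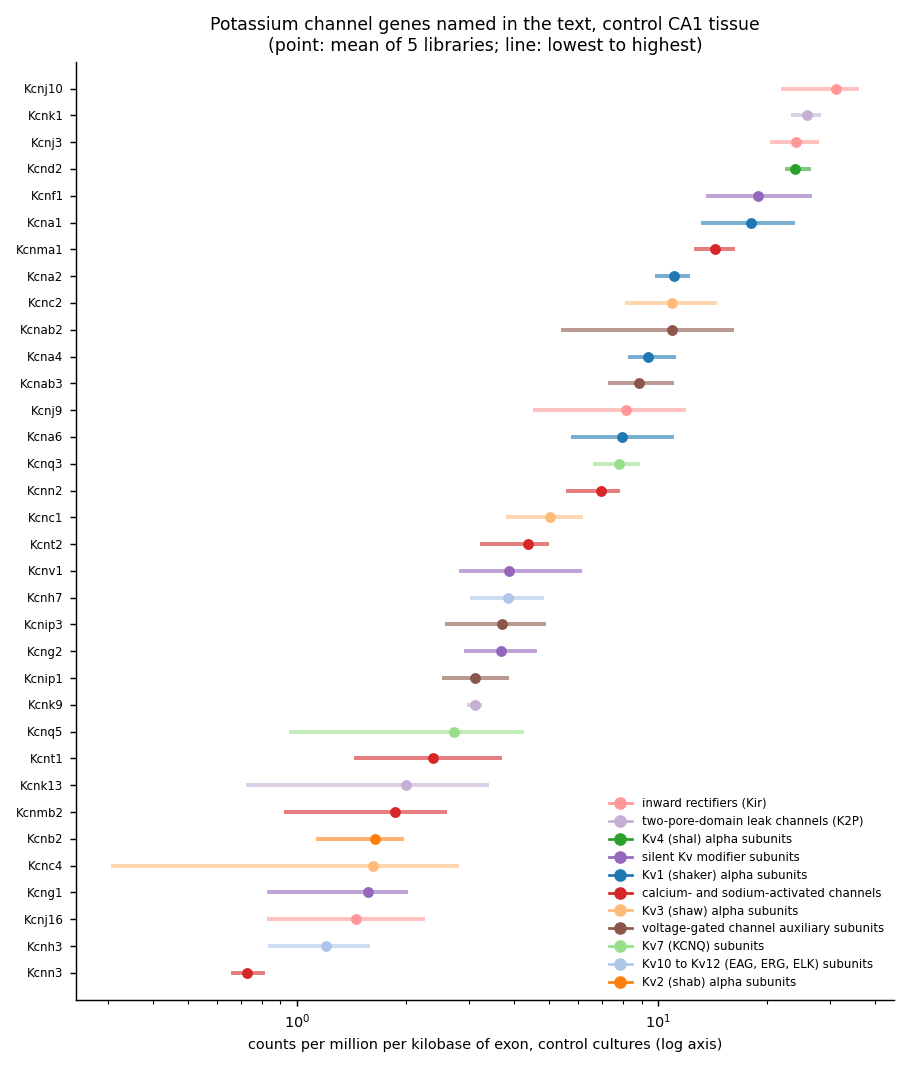
Control level of the 34 members named in the text in CPM per kilobase of exon (log axis), with the mean of the 5 control libraries as a point, the lowest to highest library as a line and the gene family as colour. Kcnj10 stands at the top with 31.1 and Kcnn3 at the bottom with 0.728, and the lines of most neighbours overlap.

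The order of the levels is only a coarse one, since 45 of the 46 pairs of neighbours in it overlapped in their control ranges; the exception was Kcnma1, the BK channel gene, over Kcna2. Within the other families the leading genes were Kcnf1 among the silent modifier subunits at 18.9 ± 4.87, Kcna1 among Kv1 at 18.1 ± 3.9 and Kcnma1 among the calcium- and sodium-activated channels at 14.4 ± 1.55. Lower leaders were Kcnc2 (Kv3, fast repolarisation) at 10.9 ± 2.69, Kcnab2 (Kv beta subunits and KChIPs, the auxiliary proteins of Kv channels) at 10.9 ± 4.31 and Kcnq3 (Kv7) at 7.79 ± 0.95. Kcnh7 led the EAG, ERG and ELK group at 3.84 ± 0.76.

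After either lesion most called members were lower than in controls. After SCL 43 members were tested and 11 passed an adjusted p of 0.05 (edgeR quasi-likelihood test, Benjamini-Hochberg over 11438 genes), which is 25.6% of them against 24.9% of all genes tested. Of these calls 10 were lower, 23.3% of the members against 11.8% of all genes, and 1 was higher, against 13.1%. After ECL 38 members were tested and 9 passed, which is 23.7% against 27.8% of 11212 genes. Here 7 were lower, 18.4% against 12.5%, and 2 were higher, against 15.2%. An unadjusted p below 0.05 was reached by 15 members after SCL, against 38.8% of all genes, and by 17 after ECL, against 40.3%. Log2 fold changes below 0 were found in 27 of 43 members after SCL, against 49.4% of all genes, and in 26 of 38 after ECL, against 50.5%. Medians of the log2 fold change were -0.14 and -0.17 over the members and 0.01 and -0.01 over all genes. The total share of called members was therefore close to the background in both lesions, and that of lower calls was above it. With scaling factors taken over all symbols, weakly expressed ones included, the median of all genes moved to 0.21 after SCL and 0.18 after ECL. Medians over the members were then 0.07 and 0.01. The member calls split into 5 higher against 4 lower for SCL and 3 against 3 for ECL. Over all genes that scaling gave 2516 higher against 596 lower calls of 11438 after SCL, and 2435 against 695 of 11212 after ECL. Directions below are relative to the median gene.

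After both lesions 8 members were called, namely Kcna1, Kcna2, Kcnab3, Kcnc2, Kcnj3, Kcnk9 and Kcnt2 as lower and Kcnip3 as higher. Kcnb2, Kcnc1 and Kcnma1 passed after SCL and not after ECL; the direct test of ECL against SCL, given further on, called none of these differences. Both comparisons used the same 5 controls, so the overlap carries no weight of its own. The values of 11 called members by library are shown in the plot that follows, and the changes of the tested members named in the text in the next.

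**Figure D2:**
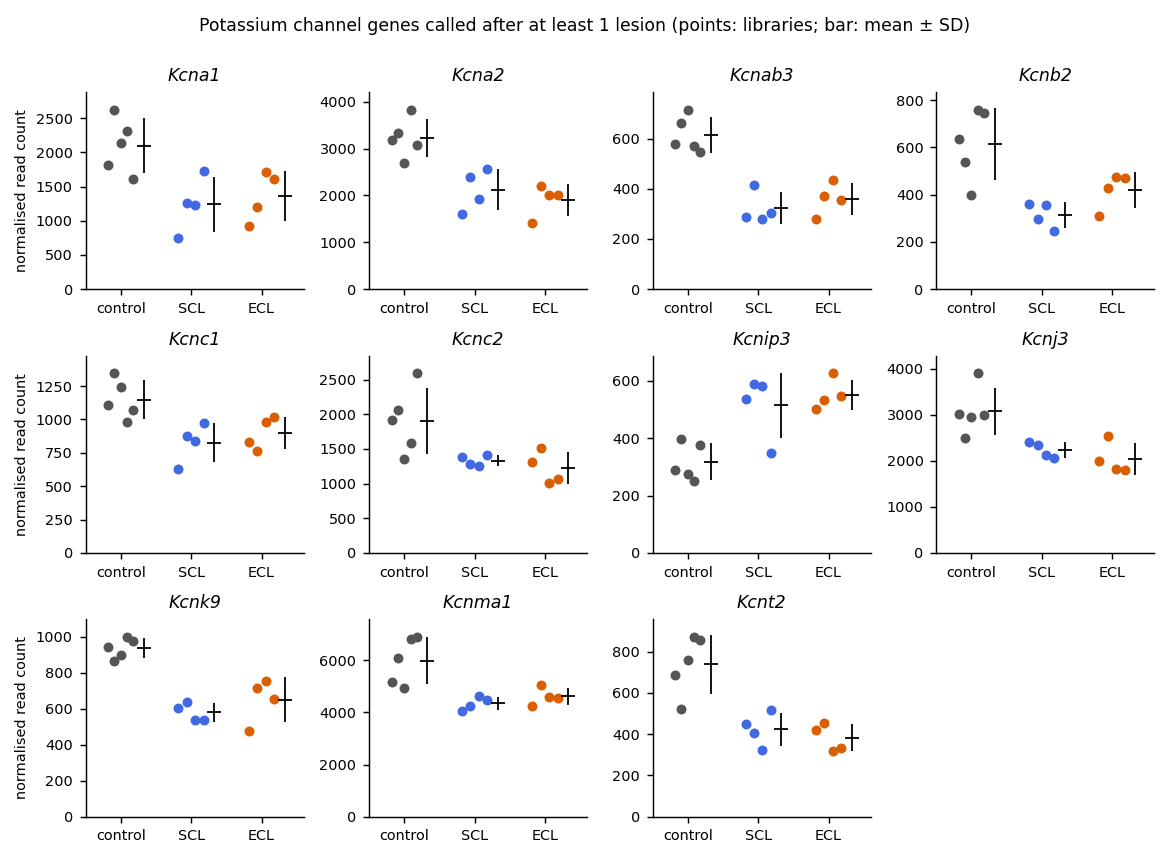
Normalised read counts of 11 members called after at least 1 lesion, with each library as a point, the mean ± SD as a bar and every axis starting at 0. The 5 control libraries of Kcnab3 sit between 548 and 716, above all 8 lesioned libraries, and those of Kcnip3 sit below all 4 ECL libraries.

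**Figure D3:**
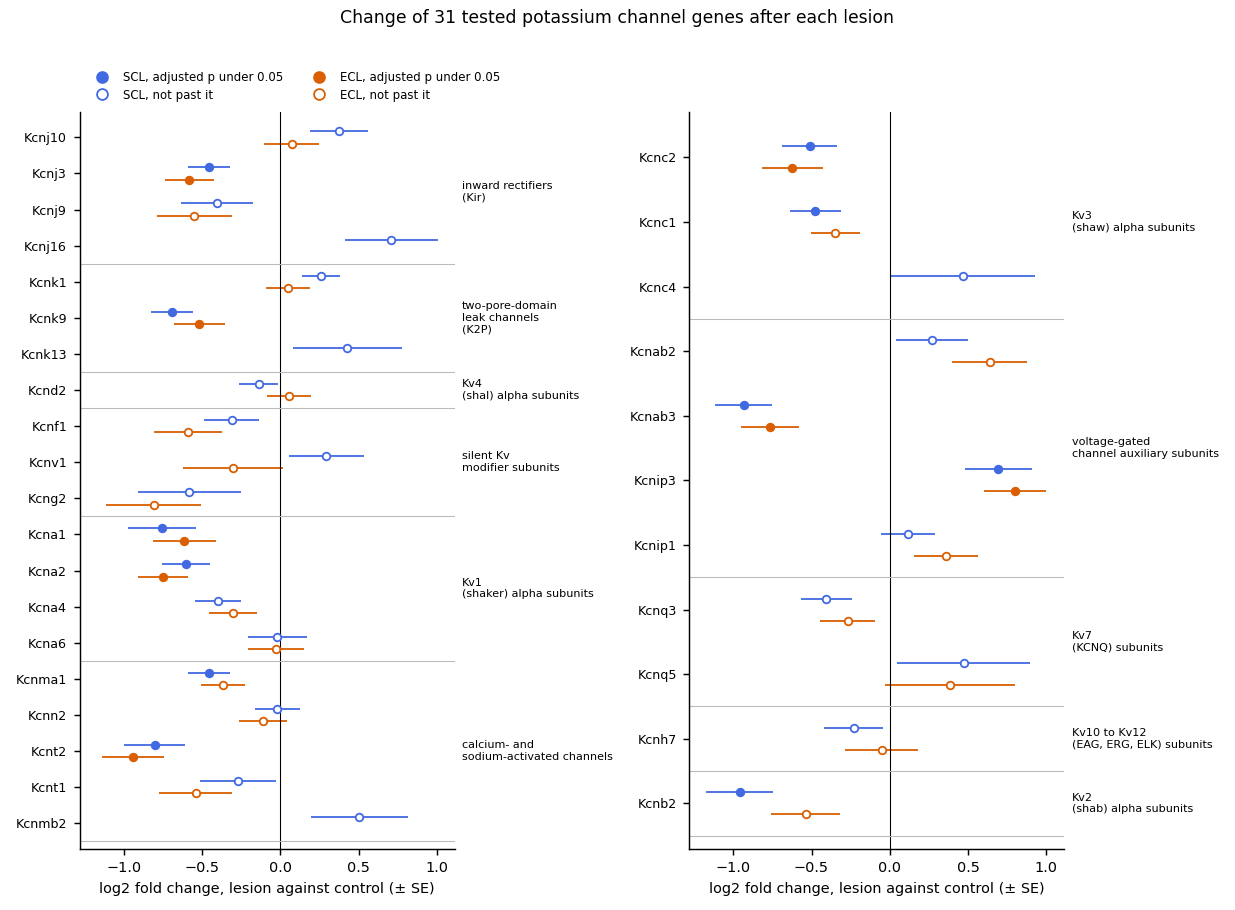
Log2 fold change against control ± SE of tested members named in the text, by family, after SCL (blue) and ECL (orange); filled points passed an adjusted p of 0.05. Lower calls stand in the Kv1, Kv2, Kv3, auxiliary, calcium- and sodium-activated, inward rectifier and leak channel families, and Kcnip3 is higher after both lesions.

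Among the Kv1 genes, whose channels sit on axons and limit how readily they fire, 2 of 4 tested were called lower after each lesion (50%, against 11.8% of all genes after SCL and 12.5% after ECL). Kcna2 (GRCm38, chr3:107101146-107115005, plus strand) read 3189, 3339, 2701, 3829 and 3079 normalised counts in controls 1 to 5. Kcna2 stood at 1607, 2397, 1924 and 2566 in SCL 1 to 4 and at 1411, 2198, 2004 and 2018 in ECL 1 to 4. All control libraries were above all lesioned ones. Kcna2 had a log2 fold change of -0.60 ± 0.15 (SE, adjusted p = 0.0145) after SCL and -0.75 ± 0.16 (SE, adjusted p = 0.00374) after ECL.

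Kcna1, which forms mixed channels with Kcna2, lies at chr6:126640397-126646384, minus strand and read 1814, 2625, 2141, 2307 and 1605 normalised counts in controls 1 to 5. Kcna1 stood at 750.3, 1264, 1224 and 1734 in SCL 1 to 4 and at 925, 1207, 1713 and 1612 in ECL 1 to 4. The groups overlapped by a few libraries: the highest SCL library (SCL 4) and the 2 highest ECL libraries (ECL 3 and 4) lay above the lowest control (control 5). Kcna1 had a log2 fold change of -0.76 ± 0.22 (SE, adjusted p = 0.024) after SCL and -0.61 ± 0.20 (SE, adjusted p = 0.0346) after ECL. The other Kv1 genes did not pass the test: Kcna4, the inactivating Kv1 subunit, stood at 1106 ± 138 in controls and 839.9 ± 94.5 after SCL with no overlap between the groups, but with -0.40 ± 0.15 (SE, adjusted p = 0.0624), and Kcna6 differed by -0.02 ± 0.19 and -0.03 ± 0.18.

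Kcnab3 encodes a beta subunit that docks to the inside of Kv1 channels, and it was among the most lowered members. At chr11:69326258-69333042, plus strand, with 5.13% of its exon bases under the antisense gene Kcnab3os, it read 580.1, 661, 716, 570.0 and 548 normalised counts in controls 1 to 5. Kcnab3 stood at 288, 417, 279 and 303 in SCL 1 to 4 and at 281, 371, 434 and 355 in ECL 1 to 4. No lesioned library reached the lowest control. Kcnab3 had a log2 fold change of -0.93 ± 0.18 (SE, adjusted p = 0.00458) after SCL and -0.76 ± 0.18 (SE, adjusted p = 0.00826) after ECL. Taken per length as a share of the 3 beta subunit genes, Kcnab3 held 34.2% ± 2.83 in controls, 19.4% ± 3.39 after SCL and 17.7% ± 0.847 after ECL (mean ± SD), and no lesioned library came near the control range. The share of Kcnab2 was 40.3% ± 7.65, 54.5% ± 5.38 and 56.7% ± 5.56, higher in every lesioned library than in any control; these shares were not tested. On its own Kcnab2 missed the threshold, with 0.27 ± 0.23 (SE, adjusted p = 0.414) after SCL and 0.64 ± 0.24 (SE, adjusted p = 0.0598) after ECL.

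**Figure D4:**
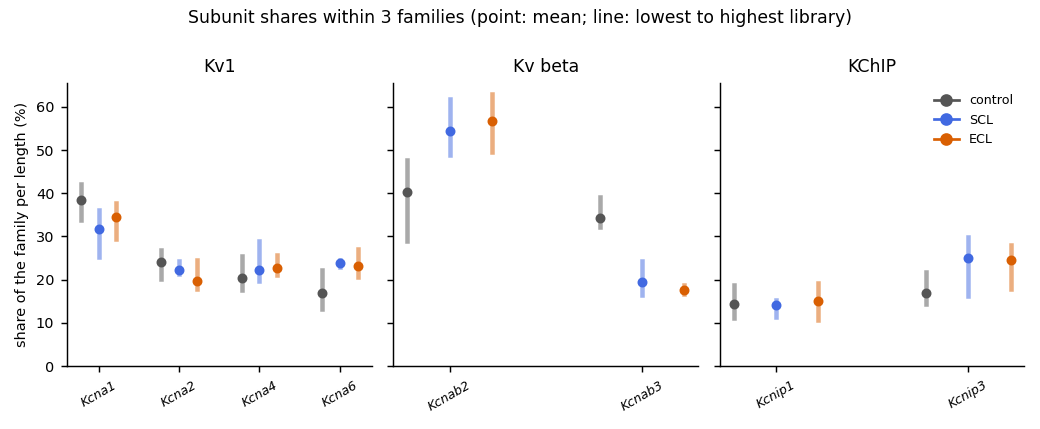
Share of each gene within its family in percent of the summed CPM per kilobase, for Kv1, Kv beta and KChIP genes named in the text, with the mean of each group as a point and the lowest to highest library as a line. The Kcnab3 share lies at 32.3% to 39.2% in controls and 16.8% to 18.8% after ECL.

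Kv2 channels carry the slow delayed rectifier of the soma. Kcnb2 (chr1:15287254-15723750, plus strand) read 634, 537, 397, 760.0 and 746 normalised counts in controls 1 to 5. Kcnb2 stood at 363, 297, 355 and 245 in SCL 1 to 4 and at 312, 428, 475 and 471 in ECL 1 to 4. All SCL libraries were below all controls, whereas 3 ECL libraries lay within the control range. Kcnb2 had a log2 fold change of -0.96 ± 0.21 (SE, adjusted p = 0.00799) after SCL and -0.54 ± 0.22 (SE, adjusted p = 0.0821) after ECL.

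Kv3 channels allow short spikes at high rates and are known for fast-spiking interneurons. Kcnc2 (chr10:112271121-112467024, plus strand) read 1913, 2067, 1351, 1584 and 2588 normalised counts in controls 1 to 5. Kcnc2 stood at 1378, 1279, 1248 and 1418 in SCL 1 to 4 and at 1315, 1509, 1012 and 1066 in ECL 1 to 4. Control 3 was lower than 2 of the SCL libraries and 1 ECL library, so the groups overlapped. Kcnc2 had a log2 fold change of -0.51 ± 0.17 (SE, adjusted p = 0.0454) after SCL and -0.62 ± 0.20 (SE, adjusted p = 0.0288) after ECL. Kcnc1 (chr7:46396497-46438704, plus strand) stood at 1149 ± 143 in controls, 827 ± 146 after SCL, where no library reached the lowest control, and 898 ± 119 after ECL; it was called after SCL with -0.48 ± 0.16 (SE, adjusted p = 0.048) and not after ECL with -0.35 ± 0.15 (SE, adjusted p = 0.106). Kcnc4 passed the minimum in the SCL fit alone of the lesion fits and was not called. Beside the Kv3 genes, the 8 interneuron markers had 1 lower (Gad1) and 1 higher (Npy) call after SCL and 2 lower (Gad1 and Slc32a1) and 1 higher (Npy) after ECL; their summed level ran from 1342 to 2655 CPM in controls, 2257 to 2958 after SCL and 1667 to 3539 after ECL, and their part in the Kv3 values was not tested.

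None of the Kv4 genes was called by edgeR or DESeq2: Kcnd2 gave -0.14 ± 0.12 after SCL and 0.06 ± 0.14 after ECL, and both tested members had an unadjusted p above 0.05. Their auxiliary KChIPs are calcium-binding proteins, and 1 of the 4, Kcnip3, was called higher; the protein it encodes, also known as DREAM, is in addition a calcium-regulated repressor of transcription. Kcnip3 (chr2:127456498-127522094, minus strand) read 291, 398, 276, 250.3 and 378 normalised counts in controls 1 to 5. Kcnip3 stood at 536, 589, 583 and 348 in SCL 1 to 4 and at 503, 531, 625 and 546 in ECL 1 to 4. All ECL libraries lay above all controls, and after SCL 3 libraries did while SCL 4 lay within the control range. Kcnip3 had a log2 fold change of 0.69 ± 0.21 (SE, adjusted p = 0.0325) after SCL and 0.80 ± 0.20 (SE, adjusted p = 0.00876) after ECL. Within the KChIPs its share per length was 16.9% ± 3.26 in controls, 25% ± 6.16 after SCL and 24.6% ± 4.68 after ECL, with overlapping ranges and no test.

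Promoter sequence was held for 31 of the 47 members in the RefSeq promoter table (GRCm38.p6). Shown here are the 250 bases before an annotated start for the gene called higher after both lesions and for a gene called lower after both, Kcnt2, because both windows hold a short motif of a factor family known to respond to neuronal activity. Capitals mark the motifs, read on both strands: the AP-1 letters TGANTCA in Kcnip3, 122 bases before the start, and in Kcnt2 the EGR letters GCGNGGGCG (on the opposite strand), 27 bases before the start, and the short CRE letters TGACG (on the opposite strand), 91 bases before it. 
Kcnip3, chr2:127522095-127522344, minus strand: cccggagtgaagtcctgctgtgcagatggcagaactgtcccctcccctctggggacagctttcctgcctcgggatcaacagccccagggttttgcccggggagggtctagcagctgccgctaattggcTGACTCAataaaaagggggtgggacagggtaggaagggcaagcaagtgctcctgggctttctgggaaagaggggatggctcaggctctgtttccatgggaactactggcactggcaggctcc
Kcnt2, chr1:140245468-140245717, plus strand: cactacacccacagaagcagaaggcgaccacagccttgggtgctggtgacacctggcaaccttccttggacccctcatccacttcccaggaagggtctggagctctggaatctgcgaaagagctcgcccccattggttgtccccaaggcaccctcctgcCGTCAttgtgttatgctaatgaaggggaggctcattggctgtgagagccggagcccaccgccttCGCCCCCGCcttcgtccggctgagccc
AP-1 letters occurred in at least 1 window of 3 of the 31 members and in 6.73% of 32536 promoter windows in the table. EGR letters occurred in 2 and 4.74%, the short CRE letters in 5 and 17.9%. Several members have more than 1 window and count once if any holds the letters, so these member counts cannot be set against the percentages. The windows of Kcna2, Kcnc2 and Kcnj3, also called lower after both lesions, held none of these letters. Kcnip3 has further annotated starts without these letters, and a match of letters is a description of the sequence only.

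Among the Kv7 genes Kcnq3, an M-channel subunit, did not pass in either comparison, with -0.41 ± 0.16 after SCL and -0.27 ± 0.18 after ECL. Kcnq5, a further subunit gene of the family, varied widely between libraries: ECL 1 and SCL 4 stood at 1375 and 1363 normalised counts, while the other lesioned libraries ranged from 311 to 769.

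Kcnt2 encodes a channel opened by sodium that enters during firing. It lies at chr1:140246158-140612067, plus strand and read 687, 521, 759, 869 and 856 normalised counts in controls 1 to 5. Kcnt2 stood at 449.9, 404, 324 and 516 in SCL 1 to 4 and at 421, 455, 321 and 332 in ECL 1 to 4. No lesioned library reached the lowest control (control 2). Kcnt2 had a log2 fold change of -0.80 ± 0.19 (SE, adjusted p = 0.0113) after SCL and -0.94 ± 0.20 (SE, adjusted p = 0.00368) after ECL. Its relative Kcnt1 did not pass, with -0.27 ± 0.24 and -0.54 ± 0.23.

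Kcnma1, the pore of the BK channel that calcium and depolarisation open together, had the highest mean count of all members. It lies at chr14:23289431-24014491, minus strand and stood at 5979 ± 902 in controls, 4354 ± 251 after SCL and 4613 ± 325 after ECL. All SCL libraries were below all controls, and 1 ECL library (ECL 2) lay within the control range. Kcnma1 had a log2 fold change of -0.46 ± 0.13 (SE, adjusted p = 0.0249) after SCL and -0.36 ± 0.14 (SE, adjusted p = 0.066) after ECL. Kcnmb2, a beta subunit of the same channel, was not called after SCL (0.50 ± 0.31 (SE, adjusted p = 0.244)).

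Inward rectifiers gave 1 lower call after each lesion, of 5 tested after SCL (20%, against 11.8% of all genes) and 3 after ECL (33.3%, against 12.5%). Kcnj3 (chr2:55435970-55598145, plus strand) read 3010.4, 2508, 2959.9, 3899 and 2996 normalised counts in controls 1 to 5. Kcnj3 stood at 2417, 2342, 2125 and 2056 in SCL 1 to 4 and at 1991, 2543, 1830.4 and 1805 in ECL 1 to 4. All SCL libraries were below all controls; ECL 2 lay just above the lowest control and the other ECL libraries below it. Kcnj3 had a log2 fold change of -0.46 ± 0.13 (SE, adjusted p = 0.0263) after SCL and -0.58 ± 0.16 (SE, adjusted p = 0.015) after ECL. On the opposite strand 31.1% of the exon bases of Kcnj3 are shared with the noncoding gene Gm26794, and counting did not use strand, so reads of the 2 genes cannot be told apart there. Kcnj9, a further GIRK subunit, did not pass (-0.41 ± 0.23 after SCL and -0.55 ± 0.24 after ECL), and per length Kcnj3 held 75% ± 8.22, 74.3% ± 1.42 and 74.5% ± 5.03 of the pair in control, SCL and ECL libraries.

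The astrocyte channel gene Kcnj10 stood at 4103 ± 706 in controls, 5324 ± 1359.8 after SCL and 4287 ± 923 after ECL, and was not called (0.38 ± 0.18 (SE, adjusted p = 0.15) and 0.07 ± 0.18 (SE, adjusted p = 0.792)). Kcnj16, whose product joins that of Kcnj10 in mixed channels, gave 0.71 ± 0.30 (SE, adjusted p = 0.0942) after SCL and was below the minimum in the ECL fit. Of 8 astrocyte markers, SCL gave 4 higher calls and ECL gave 3 higher calls and 1 lower call.

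Two-pore-domain channels carry the leak current at rest. Kcnk9 (chr15:72501089-72546340, minus strand), an acid-sensitive leak channel gene, read 943, 863, 895, 996 and 976 normalised counts in controls 1 to 5. Kcnk9 stood at 603, 639, 538 and 534 in SCL 1 to 4 and at 476, 716, 754 and 654 in ECL 1 to 4. Controls lay within a narrow band, and every lesioned library was below it. Kcnk9 had a log2 fold change of -0.69 ± 0.13 (SE, adjusted p = 0.00453) after SCL and -0.52 ± 0.16 (SE, adjusted p = 0.0296) after ECL. Kcnk1 stood at 1402 ± 42.1 in controls and 1678 ± 201 after SCL; all SCL libraries were above all controls, yet the call was missed (0.26 ± 0.12 (SE, adjusted p = 0.136)), and after ECL the log2 fold change was 0.05 ± 0.14.

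Silent modifier subunits and the EAG, ERG and ELK group gave no call in either lesion (edgeR; 0 members with an unadjusted p below 0.05 after SCL and 2 after ECL). DESeq2 called those 2, Kcng2 and Kcnf1, after ECL. Among uncalled members the largest changes after ECL were those of Kcnab2, given above, of Kcng2, with -0.81 ± 0.31 (SE, adjusted p = 0.0616) and no overlap between ECL and control libraries, and of Kcnf1, with -0.59 ± 0.22 (SE, adjusted p = 0.0578); after SCL they gave -0.58 ± 0.33 (SE, adjusted p = 0.208) and -0.31 ± 0.18 (SE, adjusted p = 0.208). Kcnh7 gave -0.23 ± 0.19 and -0.05 ± 0.23.

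Groups did not overlap in 10 of the 43 members after SCL, against 23.6% of all genes tested, and in 7 of 38 after ECL, against 25.0%. Leaving out 1 library at a time (9 fits a comparison), the calls of Kcna2, Kcnab3, Kcnb2, Kcnk9 and Kcnt2 after SCL and of Kcna2, Kcnab3, Kcnip3 and Kcnt2 after ECL were made in every fit. The other calls after SCL were lost in some of these fits: Kcnc1 in 7 of 9 (without control 1, 2, 3 or 5, or SCL 1, 2 or 3, adjusted p up to 0.13), Kcnc2 in 7 of 9 (without control 1, 2 or 5, or SCL 1, 2, 3 or 4, adjusted p up to 0.117), Kcnip3 in 6 of 9 (without control 1, 3 or 4, or SCL 1, 2 or 3, adjusted p up to 0.0963), Kcna1 in 3 of 9 (without SCL 1, 2 or 3, adjusted p up to 0.0628), Kcnj3 in 3 of 9 (without SCL 2, 3 or 4, adjusted p up to 0.0748) and Kcnma1 in 3 of 9 (without control 5, or SCL 1 or 2, adjusted p up to 0.0682). So were those after ECL of Kcna1 in 5 of 9 (without control 2, 3 or 4, or ECL 1 or 2, adjusted p up to 0.105), Kcnc2 in 5 of 9 (without control 1, 2 or 5, or ECL 3 or 4, adjusted p up to 0.0932), Kcnk9 in 4 of 9 (without control 1 or 5, or ECL 1 or 4, adjusted p up to 0.0851) and Kcnj3 in 1 of 9 (without ECL 4, adjusted p up to 0.0576).

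The direct comparison of ECL with SCL called 0 of 45 members (edgeR) and 0.0% of 12232 genes, and 3 members had an unadjusted p below 0.05, against 7.33% of all genes; DESeq2 called 0 members and 62 genes. They included Kcnb2, with a log2 difference (ECL minus SCL) of 0.43 ± 0.19 (SE, adjusted p = 0.672), and Kcnk13, a two-pore-domain channel gene, with -0.49 ± 0.20 (SE, adjusted p = 0.658). Of the members called after SCL and not after ECL, Kcnc1 and Kcnma1 differed between lesions by 0.13 ± 0.16 and 0.09 ± 0.12. No member had groups without overlap, against 3.83% of all genes, and 25 of 45 members had a log2 difference below 0, against 48.7%.

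At the threshold of the set, the members just above a mean of 150 were Kcnn3 at 160.6, Kcnh3 at 156 and Kcng1 at 153.3 scaled counts, and those just below included Kcne1l at 133.4 and Kcnn1 at 125.2. The 3 just above were too low for the lesion fits. Kcnn3, a calcium-activated channel gene, stood at 186 ± 17.8 in controls, 113 ± 32.7 after SCL and 130.1 ± 16.6 after ECL, every control above every lesioned library. With the minimum set over all 13 libraries instead, the 47 members were tested in both lesions and Kcnn3 was not called in either. Not tested after SCL were 4 members, and after ECL 9.

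Partner proteins of potassium channels under other symbols were followed as a list of 17, of which 11 passed the minimum. After each lesion 3 of the 11 were called, which is 27.3% and close to the 24.9% of all genes called after SCL and 27.8% after ECL. All 3 were lower, against 11.8% and 12.5% of all genes: Adam22 and Adam23, which anchor the secreted protein LGI at synapses near Kv1 channels, and Vapa, which ties Kv2 clusters to the endoplasmic reticulum. Adam23 fell from 3056 ± 488 in controls to 1704 ± 173 after SCL (-0.84 ± 0.14 (SE, adjusted p = 0.00243)) and 1503 ± 218 after ECL (-1.01 ± 0.16 (SE, adjusted p = 0.000629)). Adam22 gave -0.47 ± 0.14 (SE, adjusted p = 0.0288) and -0.41 ± 0.14 (SE, adjusted p = 0.046), and Vapa -0.74 ± 0.23 (SE, adjusted p = 0.0355) and -1.12 ± 0.23 (SE, adjusted p = 0.00313). With 1 library left out at a time, the call of Adam22 was lost after SCL in 3 of 9 (without control 5, or SCL 3 or 4, adjusted p up to 0.0809) and after ECL in 7 of 9 (without control 3, 4 or 5, or ECL 1, 2, 3 or 4, adjusted p up to 0.093), and that of Vapa after SCL in 5 of 9 (without control 1 or 5, or SCL 2, 3 or 4, adjusted p up to 0.105).

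The sodium-potassium pump restores the potassium gradient that the channels use. Of 13 tested pump and cotransporter genes 6 were called after each lesion, all higher, which is 46.2% against 13.1% of all genes called higher after SCL and 15.2% after ECL. The list did not move as 1 group: 5 of the 13 had a log2 fold change below 0 after SCL and 6 after ECL, none of them called by edgeR. The called genes included the beta subunit gene Atp1b2 and the regulatory FXYD genes Fxyd1, Fxyd6 and Fxyd7. Fxyd1 rose from 3441 ± 1338 to 8235 ± 2822 after SCL (1.25 ± 0.28 (SE, adjusted p = 0.00759)) and 10397 ± 2722 after ECL (1.60 ± 0.26 (SE, adjusted p = 0.000779)), and Atp1b2 gave 1.16 ± 0.29 (SE, adjusted p = 0.0142) and 1.75 ± 0.28 (SE, adjusted p = 0.000713). With 1 library left out at a time, the SCL call of Fxyd7 was lost in 6 of 9 (without control 1, 3, 4 or 5, or SCL 2 or 3, adjusted p up to 0.135) and that of Fxyd6 in 2 of 9 (without control 5, or SCL 3, adjusted p up to 0.0826), and without SCL 3 the log2 fold change of Atp1b2 moved to 0.72; after ECL all 6 calls were made in every fit.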

How the data were processed

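Counts were deposited as 1 table per library. According to the study's methods and the submitters' processing notes, the authors trimmed paired-end reads with cutadapt (3.5), aligned them to mm10 with STAR (2.7.8a) and made counts per gene with featureCounts (2.0.1) over exons of GENCODE M25, without using strand; the counts are not normalised. Between 63.0% and 74.3% of counts from 1 to 20 were even, as when both mates of a pair are counted. The labels describe CA1 tissue in the sample titles and another hippocampal field in the extraction text; CA1, as in the study's methods, was used here.

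Members and gene lists were chosen with earlier results of these data known. A separate fit was made for SCL against control, ECL against control and ECL against SCL, over genes with a mean of at least 150 counts divided by DESeq2 (1.42.0) size factors, by the edgeR (4.0.16) quasi-likelihood test in R (4.3.3) with TMM factors and Benjamini-Hochberg adjustment over all genes tested; a gene below an adjusted p of 0.05 is said to be called, and SEs were taken from the log2 fold change and its F statistic. The minimum was a mean over all libraries of a fit, so a member high in a single group can pass it through that group. Printed normalised counts were scaled by TMM over the 13 libraries to their geometric mean. Levels per length used exon lengths of GENCODE M21 (GRCm38), which also gave the coordinates, and pandas (2.3.3) and matplotlib (3.10.9) made the tables and plots. Promoters came from RefSeq (GRCm38.p6).

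Values were named by rule: every called member, the leading member of each family, the 3 members on either side of the minimum, uncalled members whose groups do not overlap, the 3 largest uncalled changes per lesion, and the leading called genes of the partner and pump lists; some of these genes are not reported here. Alternatives were DESeq2, its size factors, TMM over all symbols, no minimum, a minimum over 13 libraries, 1 fit of all 13 libraries, a replicate block, a sex term (the column headings give the sex of each culture), counts halved, a length and GC offset, an adjusted p of 0.01 and each library left out; a block on the number in the column headings was added after the data were seen. The procedure was tested on simulated data. Same-numbered libraries did not deviate together throughout (r of -0.15 to 0.53), so replicate numbers were not taken as pairs. The highest values were 0.53 for ECL 1 with SCL 1 and 0.41 for ECL 3 with control 3. No such check was made for the number in the column headings.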

Additional observations from a re-analysis of the deposited data

Results flagged for a closer look

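In 7 of 141 sets of a member and a group, 1 library lay far from the rest (gap to its neighbour over the group's range, against Dixon's 95% limit); chance alone would flag about 5% of sets. Kcnj10, the astrocyte inward rectifier, read 2872 normalised counts in control 1 against 4141 to 4533 in the other controls. Kcnk1 read 1328 in the same library against 1413 to 1428. Kcnv1, a silent modifier subunit, read 754 in control 4 against 329 to 395 in the other controls. After SCL, Kcnip1 read 429 in SCL 4 against 528 to 544, and Kcnmb2 read 299.6 in SCL 1 against 164 to 177. After ECL, Kcnn2 read 1053 in ECL 4 against 1195 to 1221, and Kcnh3 read 159.7 in ECL 3 against 77.0 to 86.9. None of these 7 genes was called by edgeR in any of the 3 comparisons in which it was tested.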

How the results depend on the processing

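The 11 members called after SCL became 7 with a replicate block and 5 with a block on the number in the column headings. At an adjusted p of 0.01 they were 3. With 1 library left out they were 5 to 11 (5 without SCL 2, 6 without SCL 3, 7 without SCL 1). Over all genes the share called after SCL fell as well, from 24.9% to 20.5% with the replicate block and 15.9% with the heading number block. It was 17.3% without SCL 2, 15% without SCL 3 and 17.4% without SCL 1. The 9 called after ECL became 5 at an adjusted p of 0.01 and 6 to 12 with 1 library left out (6 without ECL 4). They were 11 with a replicate block, and 6 with the heading number block, which lost Kcna1, Kcnc2 and Kcnk9. Over all genes the share called after ECL went from 27.8% to 23.8% with the replicate block and 20.4% with the heading number block. It was 18.8% without ECL 4. The 9 partner and pump genes called after SCL became 4 with the heading number block, 3 at an adjusted p of 0.01 and 4 to 10 with 1 library left out (4 without SCL 3, 5 without control 5); after ECL they were 8 to 9. With no minimum 8 members were called after SCL, 5 higher and 3 lower, against 3168 and 2222 of 48069 genes. After ECL 6 were called, 4 higher and 2 lower, against 3453 and 4581 of 47784 genes. Medians of the log2 fold change were then 0.02 and 0.09 over the members and -0.40 and -0.49 over all genes. The direct comparison called 0 members under every alternative. No change of a member reversed its direction past the threshold under any alternative. Levels per length had a median of 4.09, and 5.22 when divided by the longest transcript; with 1 control left out it was 4.04 to 4.15.

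At 0.05, the calls of Kcnab3 and Kcnb2 after SCL and of Kcna2, Kcnip3 and Kcnt2 after ECL were made under every alternative. Calls of Kcna2, Kcnc1, Kcnc2, Kcnj3 and Kcnma1 after SCL were lost both with no minimum and with TMM over all symbols. So were those of Kcna1, Kcnc2, Kcnj3 and Kcnk9 after ECL. No minimum alone also lost Kcnk9 and Kcnt2 after SCL and Kcnab3 after ECL, and TMM over all symbols alone lost Kcna1 after SCL. With a sex term the calls after SCL of Kcnc1, Kcnc2 and Kcnip3 were lost, and with a length and GC offset those after SCL of Kcna2, Kcnc2, Kcnip3 and Kcnma1 and that of Kcnk9 after ECL; the cause was not tested. With 1 library left out, further members were called, among them after SCL Kcng2 (-0.98, adjusted p = 0.0352, without SCL 4), Kcnj16 (0.89, 0.0475, without control 2), Kcnq3 (-0.54, 0.0364, without SCL 1) and Kcnv1 (0.56, 0.0274, without control 4), and after ECL Kcnab2, Kcnb2, Kcnf1, Kcng2, Kcnj9, Kcnma1 and Kcnt1 (adjusted p from 0.0263 to 0.0489). Depth limits the set most at its lower end, where 4 members after SCL and 9 after ECL were too low to be tested.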

Other observations

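The antisense transcript Kcnq1ot1, which lies within the Kcnq1 locus and was left out of the set as antisense, was chosen here after its values were seen. It read 7777, 6022, 7327, 6734 and 7687 normalised counts in controls 1 to 5, 3885, 5459, 3907 and 5132 in SCL 1 to 4 and 4889.6, 5219, 5285 and 5257 in ECL 1 to 4. Every lesioned library lay below every control. The log2 fold change was -0.63 ± 0.15 (SE, adjusted p = 0.00952, edgeR) after SCL and -0.45 ± 0.13 (adjusted p = 0.0174) after ECL.

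Just below the mean of 150, Kcne1l, an X-linked auxiliary subunit gene of the KCNE family, read 162.5, 227, 170.6 and 161 normalised counts in SCL 1 to 4, above the controls (66.8 to 129.6) and above ECL (69.7 to 128.8). It was too low for the lesion fits. In the direct comparison its log2 difference, ECL minus SCL, was -0.94 ± 0.23 (SE, adjusted p = 0.444, edgeR), and it was not called. Its higher SCL values helped it pass the minimum of that fit, so the difference is a description only. SCL libraries were mostly female and ECL libraries mostly male. The male library SCL 4 read 161 and the female library ECL 1 read 83.3. Controls read 77.3 and 66.8 in the male libraries and 100, 108 and 130 in the female ones. The part of sex was not tested.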
